A study of Mus musculus with 25 samples.

Results

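The dual-specificity MAPK phosphatases examined here were 10 of the 24411 genes counted in 25 mouse macrophage RNA-seq samples, chosen by symbol: Dusp1, Dusp2, Dusp4, Dusp5, Dusp6, Dusp7, Dusp8, Dusp10, Dusp14 and Dusp16. Bone marrow-derived macrophages (BMDMs) came from C57BL/6 mice and were grown in macrophage colony-stimulating factor (M-CSF) at 25 ng/ml for 4 days. The 21 BMDM samples comprised 3 controls kept in culture for 4 h, 3 samples at each of 1, 4, 12 and 24 h with IFN-γ at 100 U/ml plus LPS at 100 ng/ml, and 3 samples each with IL-4 or IL-13 at 10 ng/ml for 12 h. RAW264.7, 1 line of macrophage-like cells transformed with Abelson leukemia virus, gave 2 controls cultured for 4 h and 2 samples with LPS at 100 ng/ml for 4 h and no IFN-γ. The 4 h BMDM control therefore stood for every treatment time, and the IFN-γ-LPS, IL-4 and IL-13 comparisons shared those 3 samples. The names "IFN-γ-primed LPS-stimulated" and "IFN-γ-LPS" below mean cells given both agents. The study's methods describe separate RNA samples for the BMDM replicates, while the labels do not say whether these came from separate mice or cultures, so each p-value measures the spread between these samples.

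Dual-specificity MAPK phosphatases remove the phosphates from both the threonine and the tyrosine of the activation loop of MAP kinases, which switches the kinase off. Dusp1, Dusp2, Dusp4 and Dusp5 encode nuclear enzymes whose genes are typically induced by the kinases they inactivate. Dusp6 and Dusp7 encode cytoplasmic enzymes that prefer ERK, Dusp8, Dusp10 and Dusp16 encode enzymes that prefer JNK and p38, and Dusp14 encodes a small atypical enzyme. In LPS-stimulated macrophages DUSP1 is best known as the feedback brake on p38 and JNK, and through them on cytokine production.

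Levels are CPM, gene counts scaled to the library total without the ribosomal precursor transcript Rn45s, put on one scale over all 25 samples with TMM factors. Each library held between 1502618 and 2532496 gene counts without Rn45s, so 1 count was worth 0.395 to 0.666 CPM, and Rn45s took a further 20.1 to 39.8% of all gene counts. Differences are log2-fold changes from edgeR with their standard errors (SE), and a gene passed at an adjusted p of at most 0.01 with no cutoff on its size. In brackets after a difference, the lone or last value is that adjusted p. In these bulk samples, fewer cells of a type and less RNA per cell cannot be told apart. Summed macrophage markers stood at 19347 to 33393 CPM in BMDMs and 8674 to 10604 CPM in RAW264.7 cells, where Mertk was at 0. Summed neutrophil markers were 13.6 to 24.1 CPM in the BMDM controls against 32.2 to 51.7 CPM at 1 and 4 h, with Mpo at 0, and summed fibroblast markers were 55.5 to 144 CPM in BMDMs and 0 in RAW264.7 cells. Dendritic markers reached 48.5 to 54.0 CPM at 1 h, mostly from Clec9a, with Flt3 and Siglech at 0. The part of these markers in the differences below was not tested. As a check of the treatments, Il6 stood at 0 CPM in the BMDM controls and 685 ± 43.3 CPM (SD, n = 3) at 4 h of IFN-γ-LPS. Arg1 stood at 0 CPM in the controls, 27.4 ± 1.85 CPM with IL-4 and 39.0 ± 7.04 CPM with IL-13 (SD, n = 3 each).

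The promoters of Dusp1, Dusp2, Dusp5 and Dusp8 are shown because these tested members were, over the time course, at their highest at 1 h and lower by 4 h. Dusp10, whose mean was also highest at 1 h, was too low to enter the main test and is not shown. The window of Dusp10 held neither the CRE nor the half-site described next. Each run holds the 250 bases before the RefSeq start used, 5′ to 3′ on the strand of the gene (GRCm38.p6). For Dusp8 that start is internal, so its run lies within the gene span given below (chr7:142079487-142095907). The starts used for Dusp7, Dusp14 and Dusp16 also lie inside their gene spans. Capitals mark the cAMP response element (CRE, TGACGTCA), its half-site (TGACG on either strand, which also lies within the full element) and the CArG box, the motif bound by serum response factor.
Dusp1, chr17:26508473-26508722, minus strand: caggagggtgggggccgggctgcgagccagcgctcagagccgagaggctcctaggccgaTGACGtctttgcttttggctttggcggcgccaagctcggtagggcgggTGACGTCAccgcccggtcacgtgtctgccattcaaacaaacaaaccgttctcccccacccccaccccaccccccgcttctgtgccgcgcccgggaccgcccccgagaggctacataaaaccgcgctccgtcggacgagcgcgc
Dusp2, chr2:127335909-127336158, plus strand: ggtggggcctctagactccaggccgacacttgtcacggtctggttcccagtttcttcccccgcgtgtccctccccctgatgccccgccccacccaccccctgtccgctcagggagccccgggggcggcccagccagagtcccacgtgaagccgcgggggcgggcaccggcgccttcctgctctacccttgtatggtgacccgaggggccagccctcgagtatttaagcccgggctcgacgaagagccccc
Dusp5, chr19:53528895-53529144, plus strand: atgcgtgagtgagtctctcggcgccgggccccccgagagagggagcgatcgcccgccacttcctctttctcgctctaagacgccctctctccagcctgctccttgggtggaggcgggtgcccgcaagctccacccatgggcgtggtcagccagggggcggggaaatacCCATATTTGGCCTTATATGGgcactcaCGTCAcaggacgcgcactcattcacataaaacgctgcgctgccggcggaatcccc
Dusp8, chr7:142095285-142095534, minus strand: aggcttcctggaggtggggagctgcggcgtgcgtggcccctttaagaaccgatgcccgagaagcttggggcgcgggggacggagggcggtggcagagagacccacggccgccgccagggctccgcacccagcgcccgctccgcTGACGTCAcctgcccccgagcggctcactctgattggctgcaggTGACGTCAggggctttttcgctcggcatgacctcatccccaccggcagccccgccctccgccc
Counted from the start, Dusp1 held the full CRE at bases -143 to -136, and Dusp8 held it at -107 to -100 and again at -63 to -56. Of 32851 promoter windows reaching from 250 bases before to 50 bases after a start, 1.79% held this element. Dusp5 held a pair of adjoining CArG boxes at -82 to -73 and -72 to -63, a motif found in 1.63% of the windows. The half-site occurred in 20.8% of windows and in those of Dusp1, Dusp2 (5 to 9 bases after the start), Dusp5, Dusp8 and Dusp16. The windows of Dusp6, Dusp7 and Dusp14, like that of Dusp10, held neither the CRE nor its half-site, and that of Dusp14 held a GAS motif (TTCNNNGAA, in 8.30% of windows). No AP-1 motif (TGANTCA, 7.81% of windows), NF-kB motif (8.46%), IRF motif (3.44%) or EGR motif (GCGTGGGCG, 0.612%) lay in the 9 member windows available, both strands searched. Dusp4 was not among the sequences used. These matches describe letters in the sequence, and none was measured as a bound site.

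IFN-γ-LPS changed members in both directions at the first time point. At 1 h Dusp1, Dusp2, Dusp4, Dusp5, Dusp8 and Dusp16 were upregulated over control, while the ERK-selective Dusp6 and Dusp7 were downregulated. Dusp1 rose to a mean of 2357 CPM, which per kilobase of exon length made it the most abundant member (1184 CPM per kb, with Dusp2 next at 296), and had fallen to 125 CPM by 4 h. Dusp2 stayed high at 4 h, Dusp16 and Dusp14 were highest at 4 h, and Dusp7 remained below control through 24 h. Dusp10 and Dusp14 were too low to enter the test, with at most 12 counts in a sample. Dusp5 passed the filter on low counts only through its 1 and 4 h samples, and Dusp8 only with its 1 h samples. Both are therefore left out of the counts over members in the time course, and their tests at 1 and 4 h are given from the fit without that filter. Of the other 6 members, 4 were upregulated and 2 downregulated at 1 h, where 26.0% of all 9568 genes tested passed. Their median absolute log2-fold change was 2.02, against 0.347 over all genes tested.

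**Figure D1:**
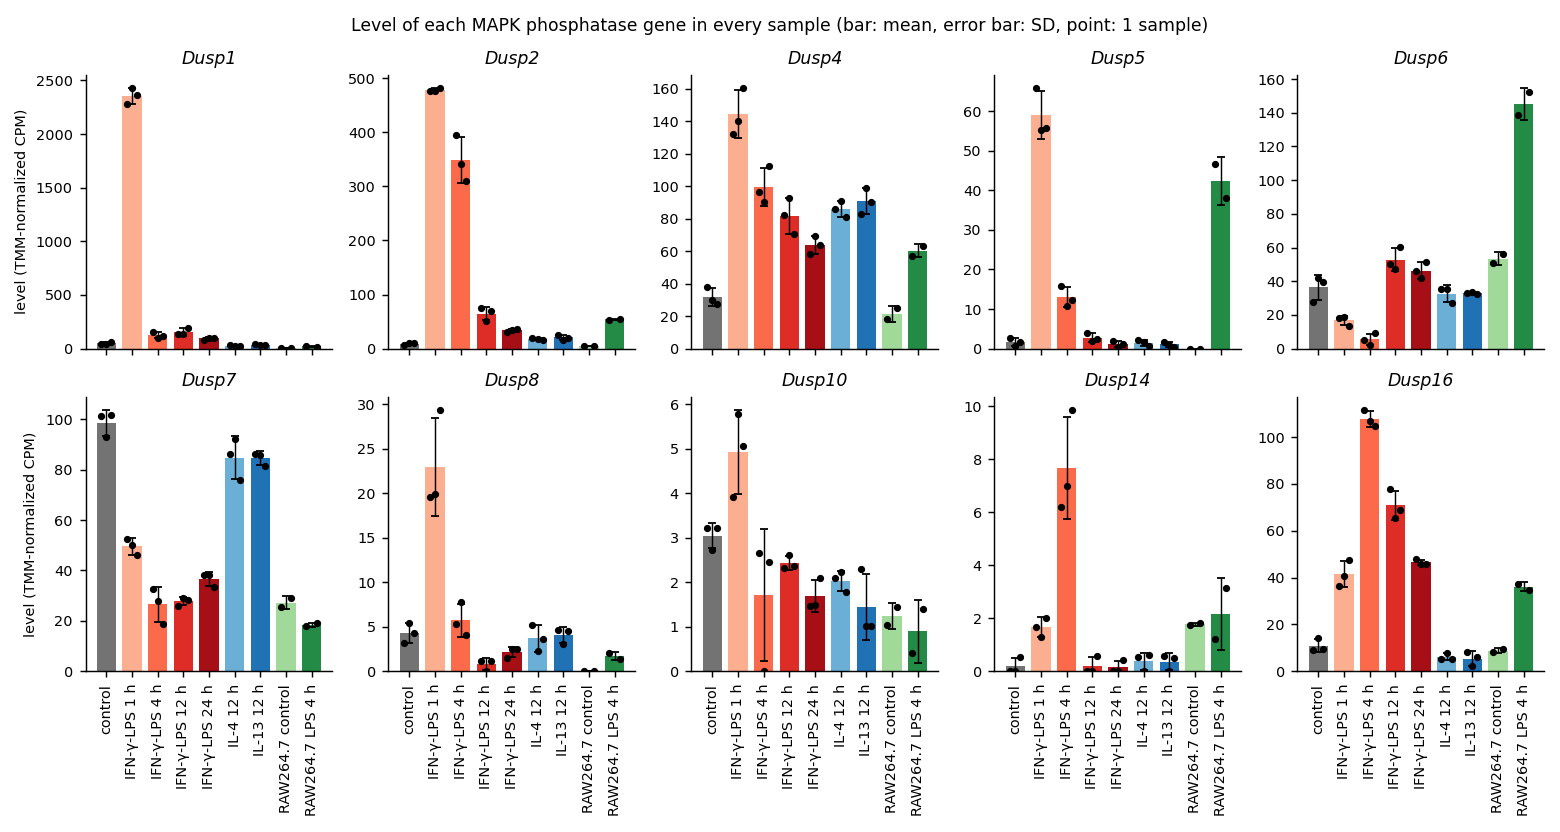
Level of each of the 10 members in the 9 conditions, in CPM without Rn45s on a linear axis that starts at 0 and differs between panels. Bars are means, points are single samples and error bars are SD (n = 3, and n = 2 for RAW264.7). Dusp1 stood at 2278 to 2430 CPM at 1 h and at or below 195 CPM in every other sample, and Dusp7 was highest in the BMDM controls.

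Dusp1 (chr17:26505591-26508472, minus strand, GRCm38), the other member with a full CRE, encodes the nuclear phosphatase that acts on p38, JNK and ERK. Its level was 45.6, 39.1 and 64.7 CPM in the 3 controls and 2278, 2430 and 2362 CPM at 1 h. The later samples held 156, 102 and 118 CPM at 4 h, 136, 132 and 195 CPM at 12 h, and 82.6, 101 and 102 CPM at 24 h. Every treated sample lay above every control, and the 1 h samples lay far above all others. The log2-fold change over control was 5.53 ± 0.16 (SE, edgeR adjusted p = 1.93e-20) at 1 h, and 1.27 ± 0.18 at 4 h (edgeR adjusted p = 7.85e-07). Dusp1 was still upregulated at 12 h (1.58 ± 0.17, edgeR adjusted p = 7.43e-09) and 24 h (0.93 ± 0.17, edgeR adjusted p = 4.91e-05). From 1 to 4 h it fell by 4.26 on the log2 scale (SE 0.15, edgeR adjusted p = 9.62e-19). This was the largest step between neighbouring time points among the 8 members that passed the filter on low counts. The difference from 4 to 12 h, 0.31, did not pass (edgeR adjusted p = 0.106), although scaling by library totals gave 0.53 and an adjusted p of 0.00705.

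Dusp2 (chr2:127336159-127338377, plus strand), a nuclear phosphatase found mainly in hematopoietic cells, rose at 1 h and declined later than Dusp1. Controls held 6.44, 10.3 and 9.63 CPM, the 1 h samples 476, 477 and 483 CPM, and the 4 h samples 395, 342 and 311 CPM. By 12 h the samples held 74.5, 50.7 and 68.8 CPM, and by 24 h 31.3, 35.3 and 35.4 CPM. The 5 groups did not overlap. The log2-fold change over control was 5.73 ± 0.16 at 1 h (edgeR adjusted p = 5.27e-33), 5.24 ± 0.16 at 4 h (2.37e-31), 2.83 ± 0.20 at 12 h (1.59e-17) and 1.94 ± 0.21 at 24 h (5.13e-11). Its level fell by 0.48 from 1 to 4 h, by 2.41 from 4 to 12 h and by 0.89 from 12 to 24 h on the log2 scale, each step passing the test (edgeR adjusted p = 7.92e-05, 4.75e-22 and 5.82e-06).

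Dusp4 (chr8:34807610-34819894, plus strand), which encodes a nuclear phosphatase for ERK and JNK, rose less and declined slowly. It stood at 38.1, 29.9 and 27.3 CPM in controls, at 132, 140 and 161 CPM at 1 h and at 96.5, 90.03 and 112 CPM at 4 h. The 12 h samples held 82.0, 92.9 and 70.6 CPM and the 24 h samples 58.2, 69.6 and 64.0 CPM. All 12 treated samples lay above the controls, whereas the 4 and 12 h samples overlapped. The log2-fold change was 2.16 ± 0.14 at 1 h (edgeR adjusted p = 5.47e-18) and 1.00 ± 0.15 at 24 h (2.02e-07), and only the step from 1 to 4 h passed the test, a fall by 0.56 (0.000205).

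Dusp5 (chr19:53529145-53541809, plus strand) encodes the nuclear phosphatase selective for ERK, and its promoter is the one with adjoining CArG boxes above. Its controls held 5, 1 and 3 counts, or 2.68, 0.543 and 1.60 CPM, against 66.0, 55.3 and 55.6 CPM at 1 h. The 4 h samples held 15.9, 10.9 and 12.3 CPM, and at 12 and 24 h every sample lay between 0.497 and 4.04 CPM. The 1 h and 4 h samples were separate from each other and from the controls, and the 12 and 24 h samples overlapped the controls. Without the filter on low counts, the log2-fold change was 5.13 ± 0.31 at 1 h (edgeR adjusted p = 2.18e-61) and 2.91 ± 0.45 at 4 h (6.18e-10). It did not pass at 12 h (0.77; 0.347) or 24 h (-0.33; 0.773).

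The 2 ERK-selective cytoplasmic members fell first and then parted. Dusp6 (chr10:99263231-99267489, plus strand) held 27.9, 41.8 and 39.6 CPM in controls, 17.9, 18.7 and 13.7 CPM at 1 h and only 5.31, 2.33 and 9.02 CPM at 4 h. At 12 h its samples held 50.3, 47.4 and 60.6 CPM and at 24 h 45.9, 41.7 and 51.4 CPM. The 1 and 4 h samples lay below every control, the 12 h samples lay above every control, and the 24 h samples overlapped the controls. Dusp6 was downregulated at 1 h (log2-fold change -1.16 ± 0.21; edgeR adjusted p = 9.72e-06) and 4 h (-2.77 ± 0.29; 1.59e-11), and then rose from 4 to 12 h by 3.26 ± 0.28 (5.68e-14). At 12 h its difference from control, 0.49 ± 0.17, did not pass (0.0123), although it passed without control replicate 2 (0.61; 0.0074), without 4 h replicate 2 or 3 and without 24 h replicate 1 (adjusted p from 0.00834 to 0.00965). At 24 h the difference was 0.35 ± 0.17 (0.0732).

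Dusp7 (chr9:106368560-106375724, plus strand) held 101.5, 92.8 and 101.6 CPM in controls, the highest of the 9 conditions. Its samples fell to 52.5, 50.2 and 46.0 CPM at 1 h and to 32.8, 27.9 and 18.9 CPM at 4 h. At 12 h they held 26.0, 29.2 and 28.2 CPM, and at 24 h 38.1, 38.3 and 33.3 CPM. The highest IFN-γ-LPS sample, at 52.5 CPM, lay below the lowest control. The log2-fold change was -1.02 ± 0.13 at 1 h (edgeR adjusted p = 8.46e-09), -1.95 ± 0.16 at 4 h (4.33e-15), -1.87 ± 0.15 at 12 h (1.37e-15) and -1.44 ± 0.13 at 24 h (3.67e-13). The rise from 12 to 24 h, 0.43, did not pass (0.055).

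**Figure D2:**
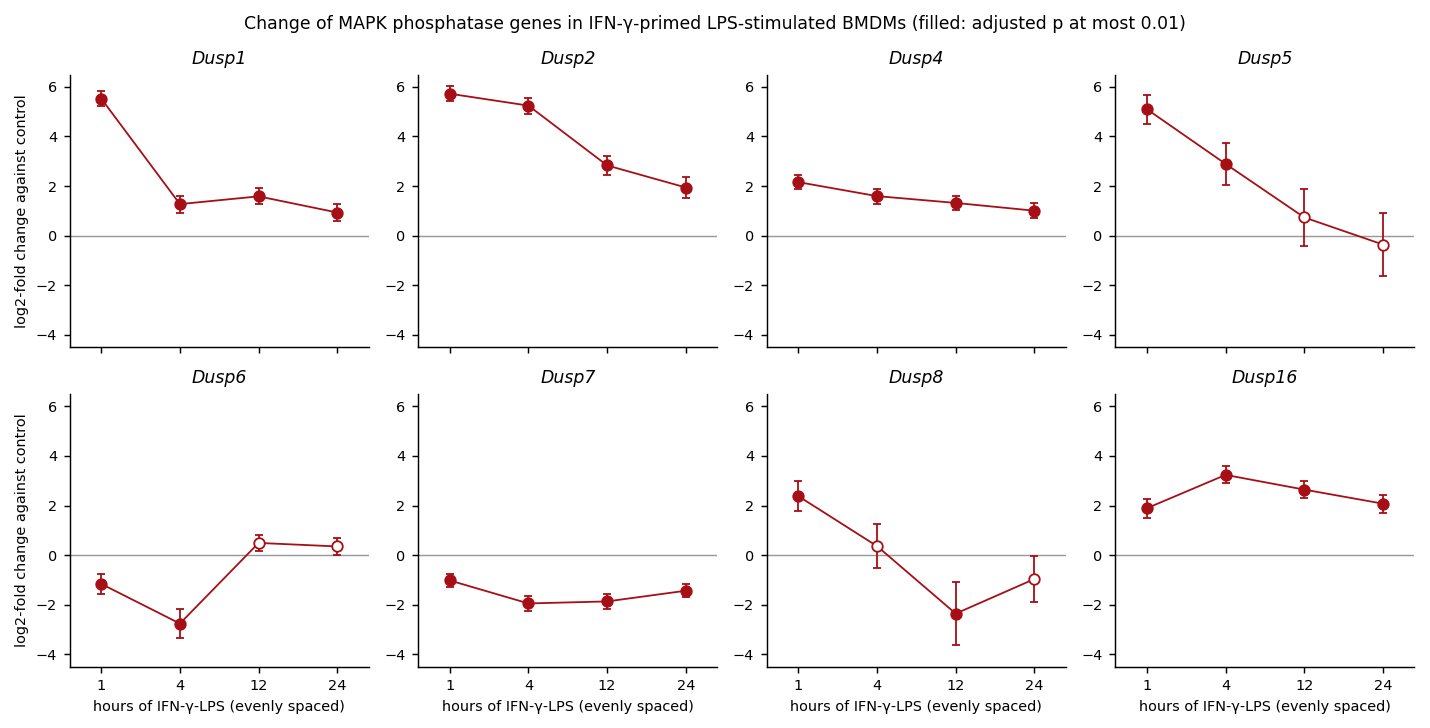
Log2-fold change of the 8 tested members, Dusp5 and Dusp8 included with their filtered values, over the BMDM control at 1, 4, 12 and 24 h of IFN-γ-LPS, with bars of 1.96 SE from edgeR; filled points passed at an adjusted p of at most 0.01. Dusp1 and Dusp2 both start above 5, Dusp16 peaks at 4 h at 3.24, and Dusp6 runs from -2.77 at 4 h to 0.49 at 12 h.

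The JNK- and p38-selective members moved on different schedules. Dusp16 (chr6:134715468-134807063, minus strand) peaked later than the nuclear members and rose from 9.13, 14.1 and 9.63 CPM in controls to 36.3, 40.5 and 47.5 CPM at 1 h. It was highest at 4 h, with 112, 107 and 105 CPM, and then held 78.0, 65.6 and 68.8 CPM at 12 h and 47.9, 45.7 and 45.9 CPM at 24 h. Every treated sample lay above every control, and only the 1 and 24 h samples overlapped. The log2-fold change was 1.89 ± 0.20 at 1 h (edgeR adjusted p = 2.86e-11), 3.24 ± 0.18 at 4 h (1.64e-21), 2.64 ± 0.18 at 12 h (1.14e-17) and 2.08 ± 0.19 at 24 h (1.81e-13). Its rise from 1 to 4 h, 1.35 ± 0.14, passed (1.56e-11). With Dusp5 and Dusp8 set aside for the filter, it alone of the other 6 tested members rose over that step, while 5 fell. Dusp14, which the filter left out, also rose from 1 to 4 h when that filter was dropped (2.10, edgeR adjusted p = 0.0017). The fall by 0.59 from 4 to 12 h passed (0.000177) and was lost under library totals (-0.37, adjusted p = 0.0158).

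Dusp8 (chr7:142079487-142095907, minus strand), whose promoter held the CRE at both positions given above, was low, at 3.22, 5.43 and 4.28 CPM in controls, and rose to 19.6, 19.9 and 29.3 CPM at 1 h. The 4 h samples, at 5.31, 7.76 and 4.10 CPM, overlapped the controls, and the 12 h samples held 2, 0 and 2 counts. Without the filter on low counts, the rise at 1 h was 2.41 ± 0.31 (edgeR adjusted p = 3.76e-13), and the difference at 4 h was 0.38 ± 0.46 (0.548). In the filtered fit Dusp8 was lower than control at 12 h (-2.36 ± 0.64; 0.0016), which rested on 4 counts against 24 and was lost without control replicate 2 (-2.16; 0.0107), without 12 h replicate 2 (-1.86; 0.0152) and with DESeq2 (0.0111). At 24 h it held 1.47 to 2.53 CPM and did not pass (-0.97; 0.0861). Dusp10 (chr1:184034381-184075636, plus strand) had between 0 and 10 counts in a sample and did not pass the filter on low counts. Its means were 3.05 ± 0.29 CPM in controls and 4.92 ± 0.95 CPM at 1 h (SD, n = 3). Without that filter its log2-fold change at 1 h, 0.67 ± 0.50 (SE), did not pass (edgeR adjusted p = 0.392).

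The atypical Dusp14 (chr11:84048033-84069256, minus strand) was near 0 in BMDMs outside 1 and 4 h of IFN-γ-LPS. Its counts were 0, 0 and 1 in the controls, 3, 2 and 4 at 1 h, 7, 9 and 12 at 4 h, and 0, 0 and 1 again at both 12 and 24 h. The 4 h samples, at 6.20, 6.99 and 9.84 CPM, lay above every other sample of the series. Pooled over samples, the level at 4 h was 42.9 times that of control, with an exact 95% counting interval of 7.09 to 1755 that covers counting error only. Dusp14 did not pass the filter on low counts, and when that filter was dropped its log2-fold change at 4 h was 4.91 ± 0.87 (edgeR adjusted p = 8.47e-08). In that fit its change from 4 to 12 h was -4.79 ± 0.88 (5.1e-07).

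Read over the 6 members left after Dusp5 and Dusp8 are set aside, 4 were upregulated and 2 downregulated at both 1 and 4 h, and 4 and 1 at both 12 and 24 h. Of all genes tested, 51.6% were called at 4 h, 47.3% at 12 h and 45.2% at 24 h, so the share of all genes that passed was higher at the later times than at 1 h. The median absolute log2-fold change of these members was 2.36 at 4 h, 1.73 at 12 h and 1.22 at 24 h, against 0.678, 0.562 and 0.517 over all genes tested. Between time points, 1 of these 6 rose and 5 fell from 1 to 4 h, where 38.9% of all genes tested passed. From 4 to 12 h 1 rose and 2 fell against 35.9% of all genes, and from 12 to 24 h none rose and 3 fell (Dusp1, Dusp2 and Dusp16) against 14.2% of all genes in either direction and 8.90% lower. With none of the 6 rising in that last step at an adjusted p of 0.01, 1 (Dusp7) did so at an unadjusted p under 0.05. The fall of Dusp16 was lost without 12 h replicate 1 (-0.50, adjusted p = 0.0169), and that of Dusp1 without 24 h replicate 1 (-0.57; 0.016) or replicate 2 (-0.70; 0.0112).

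Scaling by library totals in place of TMM moved the median log2-fold change of all genes from -0.03 to -0.21 at 1 h, from -0.08 to -0.60 at 4 h, from -0.03 to -0.34 at 12 h and from 0.02 to -0.20 at 24 h. The share of passing genes that were higher, in the same order of times, went from 56.6, 50.4, 50.6 and 52.8% to 35.8, 24.4, 31.4 and 36.2%. For the steps from 1 to 4, 4 to 12 and 12 to 24 h that share went from 51.0, 46.5 and 37.4% to 27.1, 65.5 and 52.0%. No member that passed against control at any of the 4 times changed direction or lost its call under that scaling. The antisense share of Rn45s reads, a feature of the libraries, was 0.0386 to 0.122% in the 12 libraries of the control, 1, 4 and 12 h groups and 0.00603 to 0.0214% in the 9 libraries of the 24 h, IL-4 and IL-13 groups. Within the first 12, controls held 0.0386 to 0.0543%, overlapping 1 h at 0.0456 to 0.0594%, while 4 h held 0.0665 to 0.0674% and 12 h 0.0827 to 0.122%. RAW264.7 controls held 0.0199 to 0.0236% and their LPS samples 0.0249 to 0.0283%. This difference between libraries cannot be told apart from the treatment where 4, 12 or 24 h, IL-4 or IL-13 is compared with control. Nor can it in the steps from 1 to 4, 4 to 12 and 12 to 24 h, or between 12 h of IFN-γ-LPS and IL-4 or IL-13. The same holds for LPS in RAW264.7 cells, and for cell type between RAW264.7 cells and BMDMs.

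Summed per kilobase of exon length, the 10 members stood at 90.7 ± 7.36 CPM per kb in controls and 1594 ± 39.3 CPM per kb at 1 h of IFN-γ-LPS (SD, n = 3). The sum then declined to 359 ± 39.2 at 4 h, 191 ± 20.3 at 12 h and 131 ± 8.22 CPM per kb at 24 h. The member that contributed most changed with time. Dusp7 gave 33.8% of the sum in controls, Dusp1 gave 74.3% at 1 h, Dusp2 gave 60.1% at 4 h, and Dusp1 again gave the most at 12 h (40.5%) and 24 h (36.5%). With IL-4 and IL-13 the sum was 98.1 ± 8.45 and 106 ± 3.02 CPM per kb and Dusp4 contributed most, with 32.0 and 31.4%. In RAW264.7 cells the sum was 45.6 ± 4.35 CPM per kb in controls and 149.9 ± 3.23 CPM per kb with LPS (SD, n = 2), and Dusp6 gave 41.9 and 34.7% of it.

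**Figure D3:**
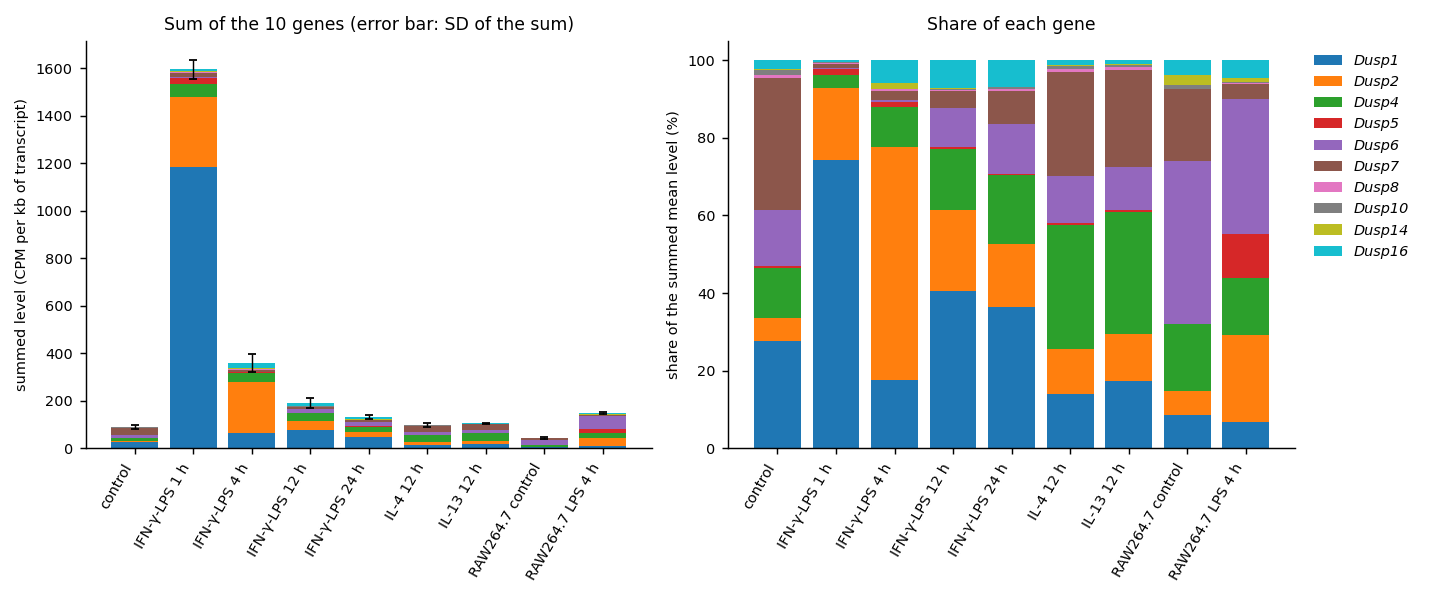
Left, summed level of the 10 members per kilobase of exon length (CPM per kb) in the 9 conditions, stacked by member, with the SD of the sum over samples (n = 3, and n = 2 for RAW264.7). Right, share of each member in that sum in percent. Dusp1 fills 74.3% of the 1 h sum, Dusp2 60.1% of the 4 h sum, and Dusp6 the largest share in both RAW264.7 conditions.

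Under IL-4 and IL-13, the cytokines of alternative activation, Dusp4 and Dusp2 were upregulated by both cytokines, and Dusp1 was downregulated with IL-4. Dusp4 held 85.9, 91.2 and 81.1 CPM with IL-4 and 82.9, 99.3 and 90.6 CPM with IL-13, all above the 27.3 to 38.1 CPM of controls. Dusp2 held 19.4, 18.4 and 16.7 CPM with IL-4 and 25.9, 15.9 and 20.2 CPM with IL-13, also above the 6.44 to 10.3 CPM of every control. The log2-fold change of Dusp4 was 1.43 ± 0.14 with IL-4 (edgeR adjusted p = 1.5e-11) and 1.499 ± 0.14 with IL-13 (1.15e-12). That of Dusp2 was 1.03 ± 0.26 (0.00365) and 1.20 ± 0.25 (0.000285). The IL-4 call of Dusp2 was lost without control replicate 1 (0.85; 0.0402), IL-4 replicate 1 (0.98; 0.0249) or IL-4 replicate 2 (1.03; 0.0168), and with DESeq2 (1.04; 0.0335).

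Dusp1 held 34.6, 23.4 and 24.5 CPM with IL-4, below every control, and 39.1, 34.8 and 35.4 CPM with IL-13, where the highest sample overlapped the lowest control. It fell by 0.86 with IL-4 (SE 0.17, edgeR adjusted p = 0.000238), a call lost without control replicate 3 (-0.63; 0.0223) or IL-4 replicate 2 (-0.75; 0.011). With IL-13 the difference was -0.47 ± 0.16 and did not pass (0.0379), although it did without control replicate 2 (-0.62; 0.00924). Dusp16 held 5.24 to 7.78 CPM with IL-4 and 2.05 to 8.06 CPM with IL-13, below all controls, and its differences of -0.84 and -1.06 did not pass (0.1 and 0.0287). That of IL-13 passed without IL-13 replicate 1 (-1.43; 0.00666). Dusp6 and Dusp7 did not pass with either cytokine, with differences of -0.16 and -0.23 for IL-4 and -0.16 and -0.24 for IL-13. In all, 2 of the 6 members tested were higher and 1 lower with IL-4, where 7.63% of all 9252 genes tested passed, and 2 were higher with IL-13, where 10.1% passed and 5.61% were higher.

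The direct comparison of IL-13 with IL-4 separated no member. None of the 6 passed in edgeR or in DESeq2, against 0.108% of all genes tested, and 1 (Dusp1) had an unadjusted p under 0.05. The difference, IL-13 minus IL-4, had 95% intervals of 0.03 to 0.75 for Dusp1 (log2), -0.26 to 0.59 for Dusp2, -0.16 to 0.31 for Dusp4, -0.34 to 0.33 for Dusp6, -0.24 to 0.22 for Dusp7 and -0.99 to 0.57 for Dusp16. The missing calls do not show that the cytokines acted alike on the members.

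Classical and alternative activation were compared at the time they share, 12 h, across the library difference in antisense Rn45s reads given above. Dusp1, Dusp2, Dusp6 and Dusp16 were higher with IFN-γ-LPS than with IL-4 or with IL-13, and Dusp7 and Dusp8 were lower. The largest difference was that of Dusp16, which held 65.6 to 78.0 CPM with IFN-γ-LPS and at most 8.06 CPM in the 6 cytokine samples. Its log2-fold difference was 3.52 ± 0.22 from IL-4 (edgeR adjusted p = 2.49e-24) and 3.73 ± 0.22 from IL-13 (2.57e-25). Dusp1 differed by 2.48 ± 0.17 from IL-4 (1.01e-15) and 2.08 ± 0.16 from IL-13 (3.43e-14). Dusp2 differed by 1.83 ± 0.17 (1.78e-15) and 1.66 ± 0.16 (2.53e-14). Dusp7 was lower with IFN-γ-LPS, with differences of -1.61 from IL-4 (9.17e-16) and -1.60 from IL-13 (8.68e-16), and its samples at 26.0 to 29.2 CPM lay below the 75.7 to 92.3 CPM of the cytokine samples.

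Dusp4 and Dusp5 did not pass in either comparison. Dusp4 overlapped, with 70.6 to 92.9 CPM under IFN-γ-LPS at 12 h and 81.1 to 99.3 CPM under IL-4 or IL-13. Its difference was -0.08 from IL-4 (95% interval -0.33 to 0.17; edgeR adjusted p = 0.651) and -0.16 from IL-13 (-0.41 to 0.09; 0.314). Dusp5, at few counts in all 3 states, gave 0.89 (0.225) and 1.36 (0.073). Under library totals the values of Dusp4 became -0.42 (0.0046) and -0.53 (0.000324) and passed. Dusp6 was higher by 0.69 ± 0.16 than with IL-4 (0.000274) and by 0.68 ± 0.16 than with IL-13 (0.000276), calls lost under library totals (0.34 and 0.30; 0.0718 and 0.102). Dusp8, at 0 to 2 counts under IFN-γ-LPS at 12 h, was lower than with IL-4 (-2.12 ± 0.68; 0.00682) and IL-13 (-2.25 ± 0.66; 0.00314). The first call was lost without any 1 of the 12 h IFN-γ-LPS samples or without IL-4 replicate 1 or 3 (adjusted p up to 0.061), and the second without 12 h replicate 2 or IL-13 replicate 1 or 3 (up to 0.0296). Counted over the 8 members tested, 4 were higher and 2 lower against each cytokine, where 41.0% of all 10612 genes tested passed in either comparison. The share of passing genes that were higher was 51.5% against IL-4 and 51.3% against IL-13, and 29.7 and 28.1% under library totals, which moved the median of all genes from -0.04 to -0.39 and -0.41.

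RAW264.7 cells given LPS alone for 4 h upregulated Dusp1, Dusp2, Dusp4, Dusp5, Dusp6 and Dusp16. Dusp5 passed the filter on low counts only through the LPS samples and is left out of the count, which was 5 higher of the other 6 members tested, where 27.9% of all 9406 genes tested passed and 15.1% were higher. None was downregulated at an adjusted p of 0.01, and 1, Dusp7, was lower at an unadjusted p under 0.05. Over all genes the share of passing genes that were higher was 54.0%, and 30.4% under library totals, which moved the median of all genes to -0.18. Each group here had 2 samples.

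Dusp5 went from 0 counts in both RAW264.7 controls to 117 and 110 counts with LPS, or 46.6 and 38.1 CPM. Against a floor of 3 counts over the control group, the level with LPS was 79.1-fold higher, a value that leaves out counting error (edgeR adjusted p without the filter = 2.21e-64). Dusp2 went from 4.16 and 5.07 CPM to 53.4 and 55.1 CPM, a log2-fold change of 3.58 ± 0.23 (edgeR adjusted p = 2.73e-52). Dusp16 went from 7.98 and 9.42 CPM to 37.4 and 34.7 CPM (2.08 ± 0.22; 1.18e-19). Dusp4 went from 18.0 and 25.0 CPM to 57.3 and 63.1 CPM (1.53 ± 0.16; 1.86e-19). For each of these members both LPS samples lay above both controls.

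Dusp6 went from 50.7 and 56.2 CPM in the RAW264.7 controls to 139 and 152 CPM with LPS, its highest level in the series (1.49 ± 0.11, edgeR adjusted p = 2.59e-36). Dusp1 stood in RAW264.7 cells at 8.33 and 7.25 CPM in controls and 21.9 and 19.1 CPM with LPS (1.42 ± 0.26; 6.99e-07). Dusp7 went from 25.3 and 29.0 CPM to 17.9 and 19.1 CPM, a difference of -0.51 ± 0.20 that did not pass (0.0304) but passed under library totals (-0.69; 0.00284). Dusp8 had 0 counts in both controls and 5 and 4 counts with LPS, 3.14-fold higher against the same floor, and did not pass the filter on low counts. Without that filter its log2-fold change, 5.26 ± 1.86, did not pass (edgeR adjusted p = 0.0204), and its size depends on the prior count. Dusp10 and Dusp14 did not pass the filter either, with means of 1.25 and 1.77 CPM in controls and 0.892 and 2.16 CPM with LPS. Without it their differences did not pass (-0.36 and 0.36, edgeR adjusted p = 0.832 and 0.738).

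The response at 4 h was then compared between RAW264.7 cells given LPS and BMDMs given IFN-γ and LPS. Cell type and IFN-γ cannot be told apart in this comparison. Dusp6 moved in opposite directions: in BMDMs its samples lay at 27.9 to 41.8 CPM in controls and 2.33 to 9.02 CPM at 4 h, while in RAW264.7 cells it rose. Its difference of changes, RAW264.7 minus BMDM, was 4.16 ± 0.31 on the log2 scale (edgeR adjusted p = 3.87e-19). Dusp7 fell more in BMDMs, with a difference of changes of 1.35 ± 0.26 (1.77e-05). Dusp2 and Dusp16 rose more in BMDMs, with differences of -1.76 ± 0.39 (0.000181) and -1.25 ± 0.33 (0.00176). Both calls were lost without RAW264.7 control replicate 2 (-1.61 and -1.13; 0.0134 and 0.0329), and that of Dusp16 under library totals (-0.81; 0.0439).

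For Dusp5 the difference of changes was 6.39 ± 1.27 (edgeR adjusted p = 3.05e-05), a value that depends on the prior count since the RAW264.7 controls were at 0. The same holds for Dusp8, whose difference of 4.32 ± 1.46 did not pass (0.0158). The rises of Dusp1 and Dusp4 were not separated between the cell types, with differences of 0.06 (95% interval -0.59 to 0.70; 0.96) and -0.16 (-0.63 to 0.31; 0.681). Of the 8 members tested, 3 had a higher and 2 a lower change in RAW264.7 cells, where 25.0% of all genes passed. The share of passing genes with the higher change in RAW264.7 cells was 39.0%, and 70.1% under library totals, which moved the median of all genes from 0.03 to 0.47.

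**Figure D4:**
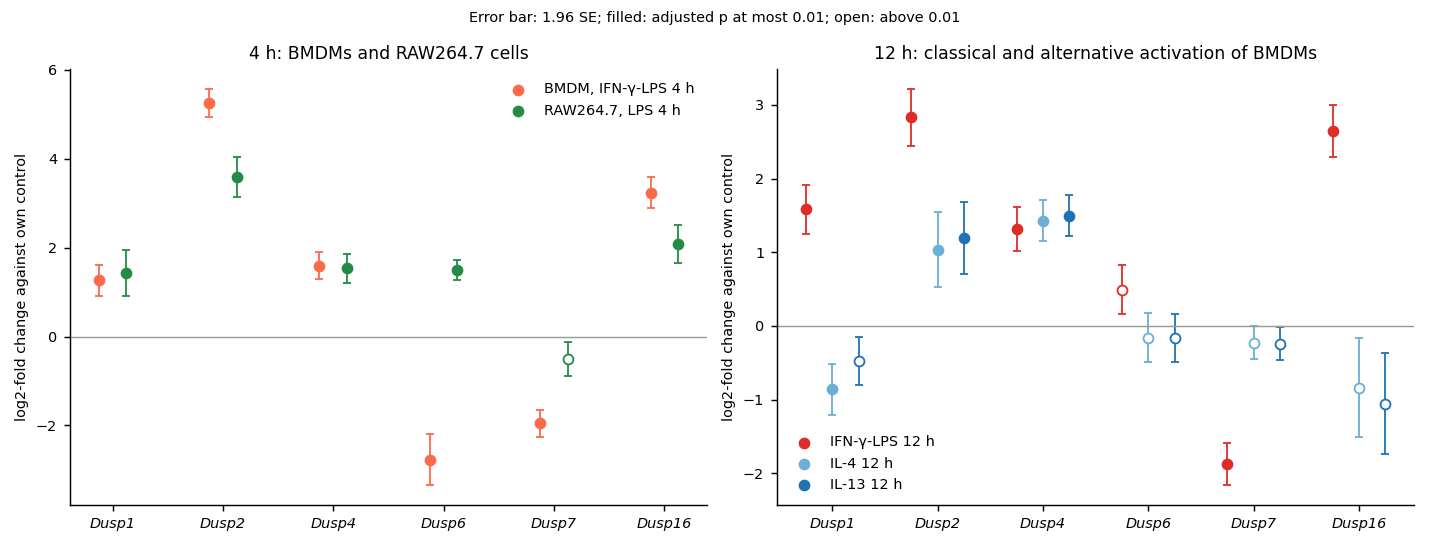
Log2-fold change over the matching control, with bars of 1.96 SE from edgeR; filled points passed at an adjusted p of at most 0.01. Left, 4 h of IFN-γ-LPS in BMDMs beside 4 h of LPS in RAW264.7 cells, where Dusp6 lies at -2.77 and 1.49. Right, 12 h of IFN-γ-LPS, IL-4 or IL-13 in BMDMs, where the 3 values of Dusp4 run from 1.32 to 1.499 while those of Dusp16 run from -1.06 to 2.64.

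Before any treatment the set was composed differently in RAW264.7 cells. Dusp1 was lower than in BMDM controls (log2-fold difference -2.67 ± 0.26; edgeR adjusted p = 1.01e-11), and so was Dusp7 (-1.86 ± 0.15; 1.07e-18). Dusp5 and Dusp8 had 0 counts in RAW264.7 controls against 9 and 24 in BMDM controls. With a floor of 3 counts over the group in place of 0 they were 3.04-fold and 8.09-fold lower, values that leave out counting error. Dusp6 was higher by 0.55 ± 0.16 (0.00193) and Dusp4 lower (-0.56 ± 0.19; 0.00654), while Dusp2 (-0.92; 0.0114) and Dusp16 (-0.33; 0.296) did not pass. In all, 1 member was higher and 5 lower of 8 tested, against 65.6% of all genes that passed between the cell types, so the members passed about as often as other genes. The call of Dusp6 was lost without BMDM control replicate 1 (0.39; 0.0422) or RAW264.7 control replicate 2 (0.48; 0.0326), and that of Dusp4 without BMDM control replicate 1 (-0.41; 0.0764) or RAW264.7 control replicate 1 (0.187), and under library totals (-0.31; 0.14). That of Dusp5 was lost without any of BMDM control replicate 1 (0.0115), RAW264.7 control replicate 1 (0.0141) or RAW264.7 control replicate 2 (0.0122).

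Ordered by mean level over the 9 conditions, 6 members (Dusp1, Dusp2, Dusp4, Dusp5, Dusp8 and Dusp10) were highest at 1 h of IFN-γ-LPS, and Dusp14 and Dusp16 at 4 h. For Dusp10 this rested on 7, 9 and 10 counts at 1 h against 6, 5 and 6 in BMDM controls. Dusp6 was highest in LPS-treated RAW264.7 cells and Dusp7 in BMDM controls. For Dusp1 the order ran from 1 h through 12, 4 and 24 h of IFN-γ-LPS to BMDM control, IL-13, IL-4, RAW264.7 with LPS and RAW264.7 control, and 6 of those 8 neighbouring pairs had sample ranges that did not overlap. The neighbours that overlapped were 12 and 4 h, and BMDM control and IL-13. The ratio of its highest to its lowest mean was 303. For Dusp2, 6 of 8 neighbouring pairs were separate, and the ratio was 104 between 1 h and RAW264.7 control. Separate ranges of 2 or 3 samples are a description and not a test. Dusp1 between IL-13 and IL-4, and Dusp2 between BMDM control and RAW264.7 control, were separate in range yet did not pass in edgeR. The same held for Dusp4 between 12 and 24 h, and for Dusp7 between BMDM control and IL-4 and between 24 and 12 h. The separate pairs of Dusp10 were 1 h and control, control and 12 h, and 12 h and IL-4. None of these passed without the filter on low counts (edgeR adjusted p = 0.392, 0.719 and 0.88). How often such ranges were separate over all genes was not counted. For Dusp4, Dusp5, Dusp7 and Dusp16 4 of 8 pairs were separate, for Dusp6 and Dusp10 3, and for Dusp8 and Dusp14 2.

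Genes whose mean log2 CPM over the 9 conditions was among the 3 most like that of a member are given by Pearson's r across conditions. Dusp10 and Dusp14 were not included, and not all 3 genes are named for each member. This is a description in which the points share libraries and controls. Dusp1 was nearest to Btg2, an antiproliferative immediate-early gene (r = 0.974), followed by Rnf2 and Zfp263. Dusp2 was nearest to Junb, an AP-1 subunit (0.978), and Csrnp1 (0.975). Dusp4 was nearest to Coq10b (0.987) and Dusp5 to Ddx5, an RNA helicase (0.932), and the histone demethylase gene Kdm6b (0.925). Dusp6 was nearest to Vps33a (0.976) and Dusp7 to Tsc22d3, the glucocorticoid-induced leucine zipper gene (0.991), and Adcy9 (0.990). Dusp8 was nearest to Frmd6 (0.980), with Zfp36, the gene of the mRNA-destabilizing protein tristetraprolin, also among its nearest (0.951). Dusp16 was nearest to the chemokine gene Ccl3 (0.988), Helz2 (0.985) and Nod2, an intracellular sensor of bacterial cell wall (0.983).

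Among the kinases on which these phosphatases act, genes moved in both directions. Over all 9568 genes tested, 72.0% passed against control at 1 or more of the 4 times of IFN-γ-LPS, 34.3% only higher, 33.3% only lower and 4.42% both at different times, and the counts of the pathway lists are to be read against these shares. Of 6 MAP kinase genes tested, 2 were only higher and 2 only lower against control at some time of IFN-γ-LPS. Mapk9, which encodes JNK2, rose from 40.7 CPM in controls to 84.9 CPM at 12 h (1.01 ± 0.15, edgeR adjusted p = 6.89e-08), and Mapk14, which encodes p38α, from 110 to 196 CPM at 24 h. Mapk3, which encodes ERK1, fell from 224 to 111 CPM at 12 h (-1.06 ± 0.11; 9.47e-12), and Mapk7, which encodes ERK5, from 35.2 to 15.5 CPM at 4 h.

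Upstream, 6 of 14 MAP2 and MAP3 kinase genes tested were only higher and 6 only lower. Map3k8, whose product links LPS signalling to ERK, rose from 37.5 to 191 CPM at 4 h (2.30 ± 0.13, edgeR adjusted p = 2.88e-21), and Map2k1, which encodes the ERK kinase MEK1, rose from 128 to 511 CPM at 12 h. Map3k1 fell from 72.6 to 8.34 CPM at 4 h and Map3k14, whose product activates the alternative NF-kB pathway, from 11.1 to 3.03 CPM.

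Of 10 MAPK-activated kinase genes tested, 2 were only higher, 6 only lower and 1 both at different times. Mapkapk2, whose product carries the p38 signal to cytokine mRNAs, rose from 197 to 1981 CPM at 4 h (3.27 ± 0.10, edgeR adjusted p = 5.44e-32), and Rps6ka4, which encodes the nuclear kinase MSK2, rose from 45.4 to 128 CPM at 4 h. Mknk2, which encodes a kinase of the translation factor eIF4E, fell from 394 to 51.6 CPM at 4 h (-2.99 ± 0.12; 1.98e-26), and Rps6ka5 from 15.8 to 4.82 CPM at 12 h. In RAW264.7 cells with LPS, Mapkapk2 rose by 0.78 ± 0.07 (5.66e-29) and Mknk2 fell by 0.90 (SE 0.10; 1.55e-16).

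Of 7 tested ERK feedback and ERK-induced genes, 5 were only higher, 1 only lower and 1 both. In the fit of controls, IL-4 and IL-13 only 4 genes of this list passed the filter on low counts. The count is therefore a description, since some of its genes entered through the samples in which they were high. Spry1, a Sprouty inhibitor of ERK activation, rose from 0.357 to 7.98 CPM at 1 h and Phlda1 from 1.43 to 25.4 CPM (log2-fold change 4.05 ± 0.42). Their controls reached at most 0.537 and 3.22 CPM, below the filter cutoff of 5.57 CPM, so both genes entered the test only through treated samples. Etv5 fell from 20.8 to 6.16 CPM at 4 h and Spry2 from 13.8 to 4.37 CPM at 24 h.

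Among 9 other DUSP genes tested, 2 were only higher and 3 only lower. Dusp9 fell from 7.35 to 1.10 CPM at 4 h (-2.72 ± 0.62, edgeR adjusted p = 0.000176) and Dusp3, an atypical phosphatase gene, from 504 to 93.1 CPM at 12 h (-2.48 ± 0.10; 3.42e-26). Dusp28 rose from 5.38 to 42.6 CPM at 12 h and Dusp11 from 131 to 175 CPM at 4 h. In RAW264.7 cells Dusp3 stood at 174.7 CPM in controls and 175.2 CPM with LPS (0.05; 0.732).

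Of 7 other phosphatase genes of the pathway tested, 5 were only higher and 1 only lower. Ppp2ca, the catalytic subunit gene of PP2A, rose from 180 to 434 CPM at 4 h (1.22 ± 0.10, edgeR adjusted p = 2.27e-15) and Ppm1b from 16.3 to 41.0 CPM. Ptpn7, a tyrosine phosphatase of ERK in hematopoietic cells, fell from 67.3 to 24.4 CPM at 4 h.

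The same pathway lists were counted outside the IFN-γ-LPS time course, where 7.63% of all genes tested passed with IL-4, 10.1% with IL-13 and 27.9% in RAW264.7 cells. With IL-4, 1 of 6 MAP kinase genes tested was lower, 1 of 10 MAPK-activated kinase genes higher and 1 of 4 ERK feedback genes higher. With IL-13, 1 gene was lower in each of the MAP kinase, MAP2 and MAP3 kinase, MAPK-activated kinase and ERK feedback lists, and 1 was higher in each of the last 2. Of 10 other DUSP genes, 0 passed in edgeR with either cytokine, and 0 with IL-4 and 1 with IL-13 had an unadjusted p under 0.05. Of 7 other phosphatase genes, 0 passed with either, and 2 with IL-4 and 1 with IL-13 had such a p. In RAW264.7 cells with LPS, 3 of 14 MAP2 and MAP3 kinase genes were higher and 1 lower, and 3 of 9 MAPK-activated kinase genes were higher and 2 lower. Of 7 ERK feedback genes 4 were higher and 2 lower, and 4 of 8 other phosphatase genes were higher. Of 6 MAP kinase genes 0 passed in edgeR and 0 had an unadjusted p under 0.05, and of 8 other DUSP genes 0 passed and 1 had such a p.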

How the data were processed

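RNA was depleted of rRNA, made into strand-specific libraries (NEBNext Ultra directional kit) and sequenced in 101-cycle paired-end runs, although the labels give the molecule as polyA RNA. The authors trimmed reads with Trimmomatic (version 0.33), aligned them to mm10 with STAR (version 2.5.1) and deposited STAR gene counts, whole numbers that were not normalized. The sense-strand counts were used here, and sense reads made up nearly all member reads (antisense share at most 0.809%). Totals were 2378639 to 3357300 counts per sample, and Rn45s was left out of library sizes and tests.

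Genes were filtered with filterByExpr and tested with the robust quasi-likelihood test of edgeR (version 4.0.16, R version 4.3.3), TMM scaling, 1 mean per group and Benjamini-Hochberg adjustment over all genes tested. The time course (15 samples), the IL-4 and IL-13 arm with its controls (9) and RAW264.7 (4) were fitted separately, and comparisons across them came from 1 fit of all 25. The SE is the log2-fold change divided by the square root of F, and 95% intervals are 1.96 SE. Alternatives were DESeq2 (version 1.42.0), other scalings, filters, strands, cutoffs and samples, a replicate block and leaving out each sample. In simulated counts on 9301 genes for the 1 h comparison, 74 of 100 changes of log2 1 and 99 of 100 of log2 2 were recovered, with 2 false calls. For IL-4 on 9239 genes these numbers were 74, 99 and 1, and for RAW264.7 on 9375 genes they were 46, 98 and 0.

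All 10 members were named, with the 2 genes of largest rise and of largest fall per pathway list among those reaching 5 CPM. For the 8 members tested over all 25 samples, the 3 genes most like each by Pearson's r were found, and 1 or more of them were named. The members and lists were chosen with earlier results of these data known. BMDMs given LPS alone were not analysed here. Replicate pairs within a group differed beyond counting noise (chi-square per degree of freedom 1.33 to 4.93). Promoter sequences are from RefSeq on GRCm38.p6, where 9 of 10 members matched, and gene positions are also from RefSeq. Exon lengths and strands are from GENCODE M21. Figures were drawn with matplotlib (version 3.10.9).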

Additional observations from a re-analysis of the deposited data

Results flagged for a closer look

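In 5 members the change at 4 h differed between RAW264.7 cells given LPS and BMDMs given IFN-γ and LPS by a test of the difference of changes itself (edgeR, all 25 samples). As RAW264.7 minus BMDM on the log2 scale, the difference was 4.16 for Dusp6, 1.35 for Dusp7, -1.76 for Dusp2, -1.25 for Dusp16 and 6.39 for Dusp5. Over the 25 fits that each left out 1 sample, the values ran from 3.75 to 4.71 for Dusp6, 1.16 to 1.52 for Dusp7, -1.90 to -1.58 for Dusp2, -1.47 to -1.13 for Dusp16 and 5.84 to 6.79 for Dusp5. The value of Dusp5 depends on the prior count because both RAW264.7 controls held 0 counts. The cell types also differed in the agents given, in medium and in strain of origin, which cannot be told apart from cell type here.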

How the results depend on the processing

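Over 2969 values of single members under the alternatives, 2856 kept their direction and their side of the threshold, 57 lost a call, 27 gained one and 29 changed sign. None of the 29 had passed in either setting. Dusp6 between IL-13 and IL-4 became 0.0111 with DESeq2, 0.0078 with RLE size factors or with Rn45s kept, 0.0061 with no filter, 0.0073 with all 25 samples in 1 fit, 0.0347 under library totals, 0.0027 in a fit of only the groups compared and 0.0006 with unstranded counts. Under library totals Dusp8 at 4 h became -0.16, Dusp7 between IL-13 and IL-4 became 0.0208, and the difference of changes of Dusp4 became 0.28. Leaving out 1 sample gave log2 values of -0.78 to 0.19 for Dusp5 at 24 h and -0.12 to 0.24 for Dusp7 from 4 to 12 h. It gave -0.172 to 0.0158 for Dusp4 at 12 h against IL-4, and differences of changes of -0.17 to 0.24 for Dusp1 and -0.379 to 0.0931 for Dusp4. Between IL-13 and IL-4 it gave -0.118 to 0.0703 for Dusp6, -0.0877 to 0.0579 for Dusp7, -0.591 to 0.181 for Dusp16 and -0.0184 to 0.322 for Dusp2.

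With the fold cutoffs of the study added (log2 1.5 in the time course, 0.7 for either cytokine and 2 in the cell line), members passing numbered 2 at 24 h, 4 from 1 to 4 h, 0 from 12 to 24 h and 3 in RAW264.7 cells, Dusp5 and Dusp8 counted where tested. At an adjusted p of 0.05, 4 passed with IL-13. Leaving out 1 sample gave 1 to 3 members with IL-4, the 1 being without IL-4 replicate 2. Counts in the other comparisons stayed within 1.5 times. Library totals added calls for Dusp7 in RAW264.7 cells (-0.69) and for Dusp8 in the difference of changes (5.11; adjusted p = 0.00581). Dusp6 at 12 h passed under RLE size factors (0.00994), no filter (0.00458), Rn45s kept (0.00821) and all 25 samples in 1 fit (0.00324). Dusp8 at 12 h against IL-4 did not pass with DESeq2 (0.0272) or no filter (0.0108), nor against IL-13 with DESeq2 (0.0168), and Dusp4 between the cell types before treatment did not with either (0.0183 and 0.0102). Dusp2 in that comparison passed with unstranded counts (0.00869), and without BMDM control replicate 1 (-1.10; 0.00467). The causes were not tested.

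Same-numbered replicates showed little shared deviation in the time course, with a mean r of 0.02 (highest 0.153) against -0.01 for other numbers. A low r cannot show that the numbers do not pair samples, and the labels do not say whether they do. With a replicate block, and with Dusp5 and Dusp8 counted where tested, 8 members passed at 1 h, 7 at both 4 and 12 h, and 5 by 24 h. Counted in that way, the main fit gave 8, 7, 6 and 5, where 26.0, 51.6, 47.3 and 45.2% of all genes passed. The block gave 8, 5 and 3 over the steps between times, 3 with IL-4, 2 with IL-13, 0 between them, 6 in RAW264.7 cells, 6 against each cytokine at 12 h, 6 between the cell types and 5 for the difference of changes. The shares of all genes that passed in these comparisons in the main fit are given above. The block added the call of Dusp6 at 12 h (0.49; adjusted p = 0.00901) and changed no other.

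Over all genes, DESeq2 passed 621 genes with IL-13 against 934 in edgeR, 1150 in RAW264.7 cells against 2625, and 4 between IL-13 and IL-4 against 10, where no filter gave 18 and leaving out 1 sample 3 to 20. With the fold cutoffs, 681 of 2489 genes passed at 1 h, 2180 of 4934 at 4 h, 1655 of 4526 at 12 h, 1422 of 4326 at 24 h, 1342 of 3719 from 1 to 4 h, 924 of 3438 from 4 to 12 h, 123 of 1360 from 12 to 24 h, 357 of 706 with IL-4, 496 of 934 with IL-13, 6 of 10 between them and 303 of 2625 in RAW264.7 cells. At an adjusted p of 0.05, 2116 passed from 12 to 24 h, 1192 with IL-4, 1491 with IL-13 and 19 between them. At this depth Dusp10 and Dusp14 passed the filter on low counts in no fit. Dusp5 outside 1 and 4 h of IFN-γ-LPS and LPS-treated RAW264.7 cells, and Dusp8 outside 1 h, held at most 10 counts in a sample.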
